A study of Mus musculus with 57 samples.

Results

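The genes described here are 31 genes of fatty acid oxidation, found by their symbols in a table of 21118 genes that holds 1 column for each of 53 mice. All 31 were in the table and all were tested. Fatty acids are activated to acyl-CoA, carried across the mitochondrial membranes as carnitine esters, and shortened in the matrix by a cycle of dehydrogenation, hydration, a second dehydrogenation and thiolysis. Electrons from the cycle reach the respiratory chain through the electron transfer flavoprotein, and peroxisomes shorten very long and branched chains by a related route. In brain, fatty acid oxidation is attributed mainly to astrocytes, and the nuclear receptor Ppara is a known activator of its genes in liver and other tissues.

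The RNA came from the cerebral cortex of Aldh1l1-L10-GFP mice on a C57BL/6 background, in which the promoter of the astrocyte gene Aldh1l1 drives a GFP-tagged ribosomal protein L10. Tagged ribosomes were pulled down with an antibody to GFP, a method meant to enrich messages bound to ribosomes of cells in which that promoter is active (translating ribosome affinity purification). All groups carried the same transgene and none was treated. Ages were P1, P4, P7, P14 and P35 (postnatal days) and adult, with 4, 4, 8, 5, 3 and 4 female and 4, 4, 4, 5, 3 and 5 male mice in that order, and the labels give no day for the adults. The libraries also fall into 6 replicate sets (1, 2, 3, 4, 6 and S), taken from the first digit of a library's number. The 4 libraries of set S are all from P7, and set membership is not explained by the labels.

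Total counts per library ran between 14768178 and 48541139 with a median of 24033399. The 3 libraries with the fewest genes were P1 female 4, P7 female 40 and P14 male 4, with between 10085 and 14530 genes of at least 10 counts, and every other library had at least 15531. P1 female 4 had 0 counts for 6 of the 31 genes (Acsl1, Acsl3, Eci1, Acox3, Ehhadh and Crot). In 11 libraries the summed level of 4 Y-linked genes went against the labelled sex at a cutoff of 1 CPM (above it in a female or below it in a male library). The flagged female libraries ran from 1.896 CPM (P7 female 40) to 194.1 CPM (P7 female S2), so some passed the cutoff by low sums only. The lowest male library that was not flagged, P14 male 4, was at 17.2 CPM. Of 28 mature astrocyte markers, 26 were higher in adults than at P1 and 0 were lower, and their summed level was 5809 to 33870 CPM in adult and 1449 to 10780 CPM in P1 libraries (CPM, counts after division by library size). Markers of other cells were present as well: the sum of 24 neuronal markers was 3840 to 14780 CPM in adult and 2785 to 11460 in P1 libraries, and that of 17 oligodendrocyte markers 1195 to 2863 in adult and 416 to 2205 in P1 libraries. At the median, the astrocyte sum was 25290 CPM in adult and 2972 CPM in P1 libraries. The median neuronal sum was 4688 CPM in adult and 6764 CPM in P1 libraries. Of the neuronal markers 12 were higher in adults and 7 lower, and of the oligodendrocyte markers 13 were higher and 2 lower. Median log2 differences of adult minus P1 were 2.356 for astrocyte, 0.864 for neuronal and 2.805 for oligodendrocyte markers. No marker of these 3 lists was at 0 counts in any adult library. In pulled-down RNA of whole cortex, fewer cells of a type and less RNA per cell cannot be told apart.

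Levels below are CPM on scaled library sizes, as the median and the range over the libraries of an age. Differences are log2 differences of a model of all 53 libraries with terms for sex and age group and for replicate set, tested with edgeR's quasi-likelihood test, with p-values adjusted over all 21118 genes by the method of Benjamini and Hochberg and a threshold of 0.05. An age is the mean of its female and male groups.

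RNA pulled down from adult cortex held more message than that from P1 cortex for 20 of the 31 genes, and for 0 of them less. Over the whole table, 21.8% of genes were higher in adults and 19.5% were lower. The median log2 difference was 0.86 over the 31 genes and 0.06 over all genes. The acyl-CoA synthetase Acsbg1, the isomerase Eci1, the synthetases Acsl3 and Acsl6, the thiolase subunit Hadhb and the receptor Ppara had the highest values, between 1.63 and 2.35 on the log2 scale. The 11 that did not pass included 3 of 4 genes grouped as the carnitine shuttle, Cpt1c among them, and 2 of 3 genes of the electron transfer route. Over the 6 ages jointly, 13 of the 31 genes passed the test of any change, beside 43.5% of all genes, which is near the share in the table. No member's adult libraries lay wholly above its P1 libraries, beside 3.58% of all genes, and none lay wholly below, beside 2.69%. The lowest adult library was adult male 60, of replicate set 6, for 26 of the 31 genes. Among adult libraries adult male 60 also had the lowest sum of astrocyte markers (5809 CPM) and the highest sum of neuronal markers (14780 CPM). Its Y-linked sum was 0.093 CPM under a male label, and its description carries the letter of the other sex.

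**Figure D1:**
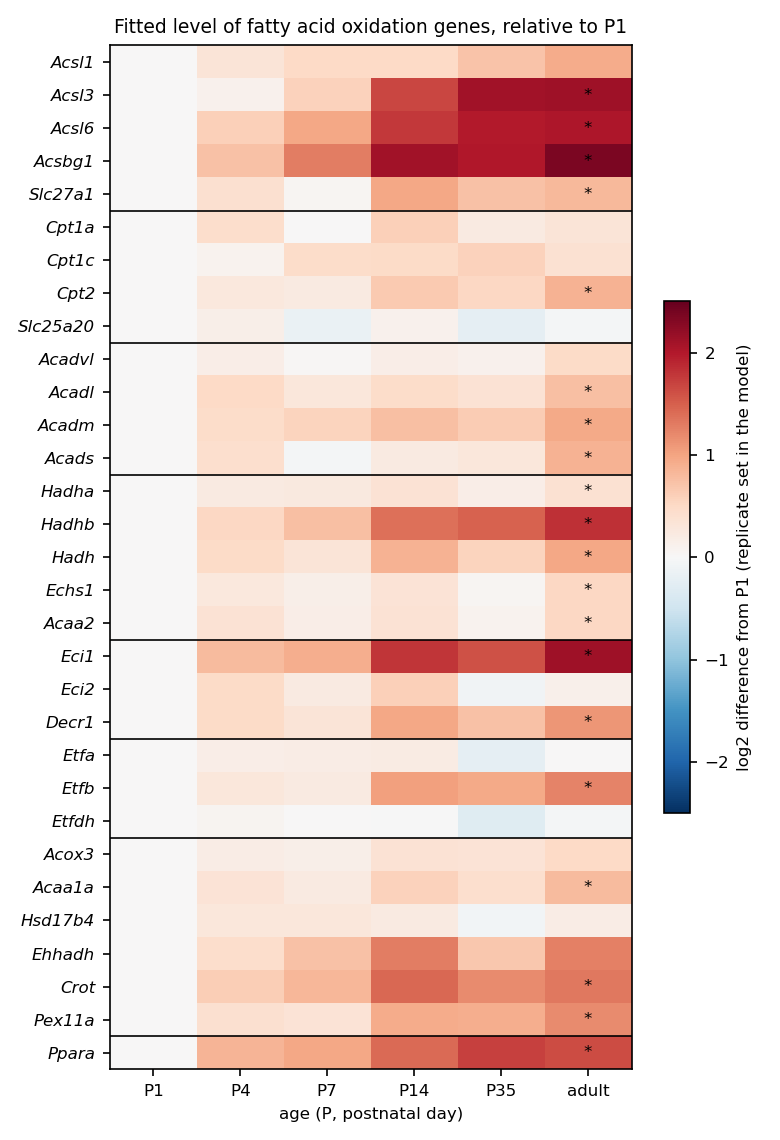
Fitted log2 level of each of the 31 genes (rows, grouped by role with black lines between groups) at each age (columns, low to high), relative to P1, with replicate set in the model; a star in the adult column marks an adjusted p under 0.05 in adult minus P1. Acsbg1, Acsl3, Acsl6, Hadhb, Eci1, Ppara and Crot are among the redder rows from P14 on, while Slc25a20, Etfa and Etfdh stay near 0.

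Activation and uptake. Of the 5 genes that activate or import fatty acids, 4 were higher in adults and 0 lower, with a median log2 difference of 2.03. Acsbg1 (chromosome 9, 54604877 to 54661870, minus strand; GRCm38, GENCODE annotation), which activates long and very long chains and is itself in the astrocyte marker list, had the smallest p of the 31 genes. Acsbg1 had a median of 86.6 CPM at P1 (range 22.99 to 241), 155 CPM at P4 (64.8 to 354.5) and 177 CPM at P7 (93.45 to 423). Its median was 475.5 CPM at P14 (96.4 to 816), 381 CPM at P35 (92.7 to 942.5) and 642 CPM in adults (121 to 936). In adults 8 of 9 libraries were above the highest P1 library, P1 female 1, and adult male 60 was at 121 CPM. The log2 difference of adult minus P1 was 2.35 ± 0.22 (SE, adjusted p = 2.13e-11), and the test over the 6 ages gave an adjusted p of 8.64e-12. Per kilobase of annotated exon, Acsbg1 had the highest adult median of the 31 genes, 178 CPM per kb in adults and 24.0 CPM per kb at P1. The length counts every base in any annotated exon of a gene, over all its transcripts. It can therefore exceed the length of a single message, and the ranks per kilobase given here and below depend on it.

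Acsl6 (chromosome 11, 54303798 to 54364756, plus strand) encodes a brain-enriched long-chain synthetase known for its use of docosahexaenoic acid. Acsl6 had a median of 40.97 CPM at P1 (range 2.81 to 121), 63.3 CPM at P4 (38.6 to 126) and 70.8 CPM at P7 (33.8 to 161). Its median was 201 CPM at P14 (45.1 to 239), 166 CPM at P35 (83.7 to 400.1) and 238 CPM in adults (62.1 to 346). The 2.81 CPM value belonged to P1 female 4, and 6 of 9 adult libraries exceeded the highest P1 library. Its log2 difference was 2.03 ± 0.29 (SE, adjusted p = 3.77e-07), and 1.79 without P1 female 4 (adjusted p = 4.43e-09).

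Acsl3 (chromosome 1, 78657825 to 78707743, plus strand) is the synthetase of the endoplasmic reticulum and lipid droplets. Acsl3 had a median of 28.4 CPM at P1 (range 0 to 48.4), 23.4 CPM at P4 (8.23 to 48.4) and 28.8 CPM at P7 (4.41 to 75.2). Its median was 93.6 CPM at P14 (20.9 to 126), 100 CPM at P35 (39.2 to 213) and 92.1 CPM in adults (31.85 to 183). P1 female 4 had 0 counts, which allows up to 0.186 CPM at 3 counts. Adult libraries were above every P1 library in 8 of 9 cases. Adult minus P1 came to 2.13 ± 0.41 (SE, adjusted p = 5.77e-05), and 1.87 without P1 female 4 (adjusted p = 3.15e-06).

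Slc27a1, a fatty acid transport protein with synthetase activity, had medians of 188 CPM in adults (25.2 to 316) and 73.8 CPM at P1 (19.7 to 266). Its log2 difference was 0.82 ± 0.30 (SE, adjusted p = 0.0247), but 0.61 without P1 female 4 (adjusted p = 0.0591), where it no longer passed. Acsl1, the main synthetase of heart, liver and fat, had medians of 16.8 CPM in adults (11.1 to 53.5) and 9.17 CPM at P1 (0 to 47.8) and did not pass, at 0.93 ± 0.42 (SE, adjusted p = 0.0747). Acsl1 was 30th of 31 genes per kilobase in adults, at 1.60 CPM per kb.

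**Figure D2:**
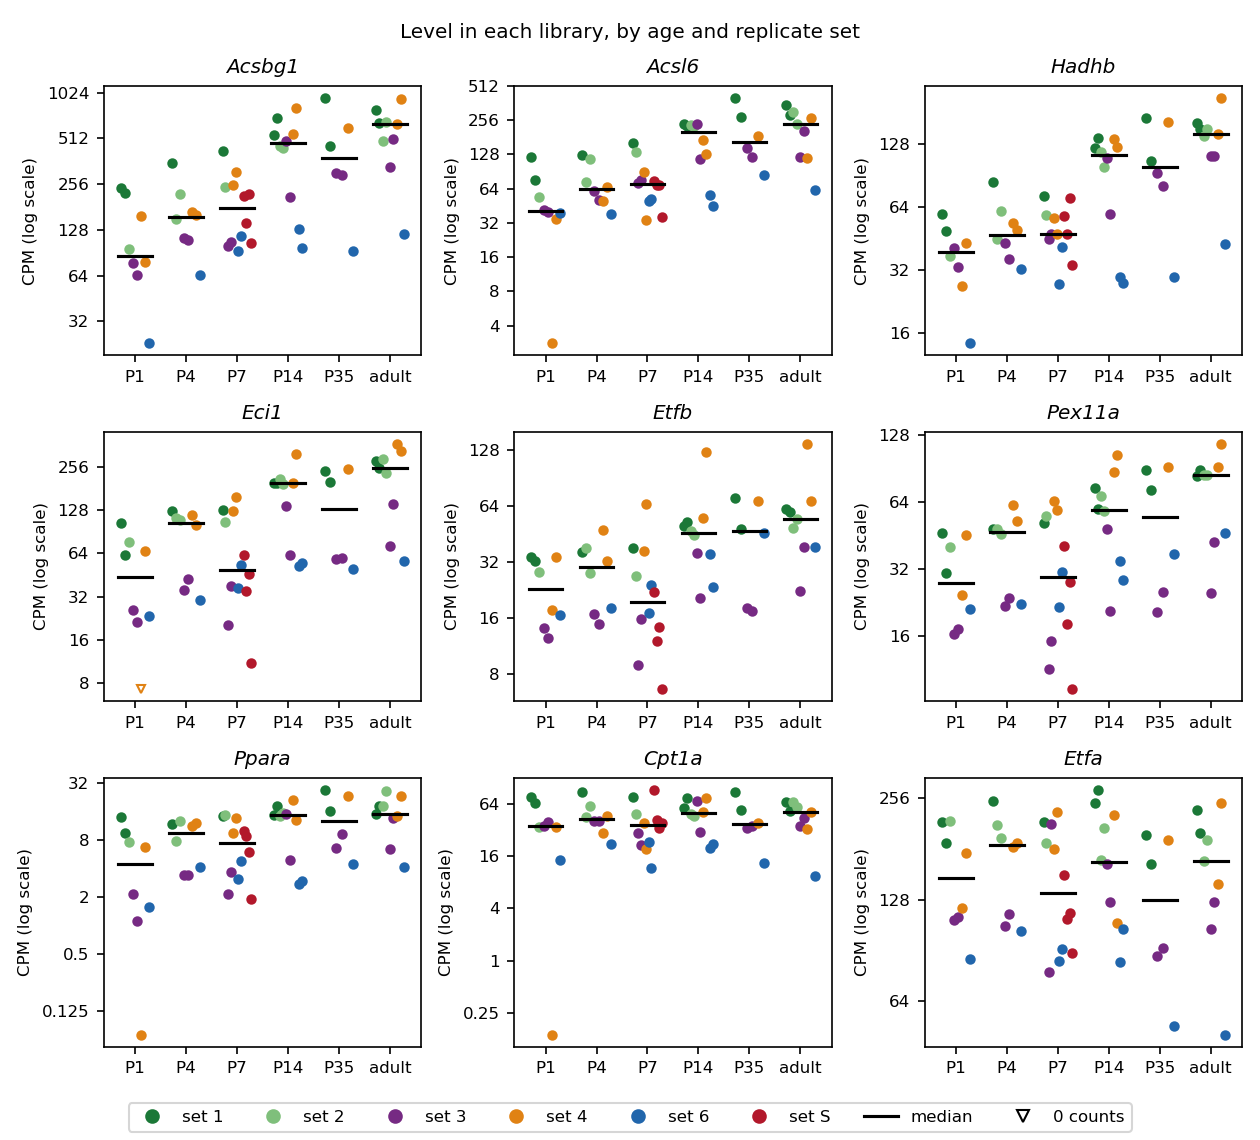
Level of 9 of the genes in each library (points, CPM on a log axis) by age (low to high), coloured by replicate set, with the median of each age as a black bar and open triangles at the foot for libraries with 0 counts. Acsbg1 is at a median of 642 CPM in adults and 86.6 CPM at P1, set 6 (blue) is low at most ages, and the medians of Cpt1a stay between 35.4 and 51.2 CPM.

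The carnitine shuttle. Of the 4 genes grouped here as the carnitine shuttle, with Cpt1c placed there by its family, 1 was higher in adults, 0 were lower, and none passed the test over the 6 ages. Slc25a20 (chromosome 9, 108662088 to 108684641, plus strand), the carnitine and acylcarnitine translocase, had the highest level of the 4. Slc25a20 had a median of 56.4 CPM at P1 (range 41.8 to 79.5), 70.3 CPM at P4 (36.6 to 101) and 40.4 CPM at P7 (24.45 to 89.9). Its median was 64.1 CPM at P14 (29.9 to 109.5), 46.5 CPM at P35 (25.3 to 100.4) and 71.05 CPM in adults (21.9 to 96.2). Of the 9 adult libraries 3 lay below and 3 above the range of the P1 libraries, and the log2 difference was -0.05 ± 0.17 (SE, adjusted p = 0.833). Cpt1a, the liver-type carnitine palmitoyltransferase that controls entry of long chains, had medians of 51.2 CPM in adults (9.36 to 67.6) and 35.4 CPM at P1 (0.141 to 77.8), and 0 of 9 adult libraries exceeded the highest P1 library. Its log2 difference was 0.33 ± 0.36 (SE, adjusted p = 0.486). The brain isoform Cpt1c, which is known mainly from neurons, had medians of 16.4 CPM in adults (9.96 to 42.03) and 13.8 CPM at P1 (8.68 to 17.8) and a log2 difference of 0.38 ± 0.23 (SE, adjusted p = 0.182). Cpt2, the transferase of the inner membrane, was the gene that passed, at 19.9 CPM in adults (3.665 to 32.97) and 10.97 CPM at P1 (4.43 to 16.4) and a log2 difference of 0.86 ± 0.26 (SE, adjusted p = 0.007055).

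Acyl-CoA dehydrogenases. These 4 enzymes take the first step of each cycle and differ in the chain length they prefer. Of them 3 were higher in adults and 0 lower. Acads (chromosome 5, 115110299 to 115119346, minus strand), the short-chain enzyme, was the one that also passed the test over the 6 ages (adjusted p = 0.0213). Acads had a median of 11.5 CPM at P1 (range 5.23 to 19.2), 15.85 CPM at P4 (6.97 to 25.2) and 9.725 CPM at P7 (2.77 to 27.4). Its median was 12.8 CPM at P14 (3.87 to 23.2), 15.04 CPM at P35 (5.04 to 23.6) and 21.8 CPM in adults (7.06 to 48.8). In adults 5 of 9 libraries exceeded the highest P1 library, and the log2 difference was 0.86 ± 0.25 (SE, adjusted p = 0.004735). The medium-chain enzyme Acadm was at 117 CPM in adults (49.05 to 150.2) and 62.2 CPM at P1 (0.0703 to 85.4), with a log2 difference of 0.95 ± 0.34 (SE, adjusted p = 0.0225). Acadl, the long-chain enzyme, was at 172 CPM in adults (44.2 to 286) and 95.9 CPM at P1 (16.2 to 161), with a log2 difference of 0.76 ± 0.24 (SE, adjusted p = 0.0097), and had the highest level of the 4 per kilobase at both ages. Acadvl, the very long-chain enzyme of the inner membrane, was at 43.5 CPM in adults (9.03 to 59.05) and 28.02 CPM at P1 (12.96 to 40.3) and did not pass, at 0.47 ± 0.32 (SE, adjusted p = 0.252).

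Hydration, second dehydrogenation and thiolysis. All 5 genes of these steps were higher in adults, with a median log2 difference of 0.52. Hadhb (chromosome 5, 30155248 to 30184593, plus strand) encodes the thiolase subunit of the mitochondrial trifunctional protein. Hadhb had a median of 39.1 CPM at P1 (range 14.35 to 59.6), 47.3 CPM at P4 (32.4 to 84.9) and 47.75 CPM at P7 (27.4 to 72.1). Its median was 114 CPM at P14 (27.9 to 138), 100.1 CPM at P35 (29.6 to 172) and 143 CPM in adults (42.75 to 213). Adult libraries exceeded every P1 library in 8 of 9 cases, and adult male 60 was at 42.75 CPM. On the log2 scale adult minus P1 was 1.82 ± 0.18 (SE, adjusted p = 1.29e-10), and the test over the 6 ages gave an adjusted p of 1.45e-10.

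Hadha (chromosome 5, 30118304 to 30155162, minus strand) encodes the other subunit, with the hydratase and long-chain hydroxyacyl-CoA dehydrogenase activities. Its medians were 55.6 CPM in adults (22.4 to 80.1) and 46.2 CPM at P1 (15.9 to 62.9). The fitted log2 difference was 0.39 ± 0.16 (SE, adjusted p = 0.0478), and the call was lost in 33 of 53 fits with 1 library left out, with values between 0.33 and 0.42. The proteins form 1 complex, and the genes lie head to head on chromosome 5: their RefSeq start sites (GRCm38.p6) are 273 bases apart, at 30154980 for Hadha on the minus strand and 30155253 for Hadhb on the plus strand. Their promoter windows of 300 bases share 228 bases. The Hadhb window is shown because one stretch of DNA lies before both RefSeq start sites. By the GENCODE coordinates above, Hadha reaches to 30155162, so that part of this stretch lies within Hadha. The Hadhb window is chr5:30155003-30155302, plus strand, with the bases that are also in the Hadha window in capitals.
Hadhb promoter: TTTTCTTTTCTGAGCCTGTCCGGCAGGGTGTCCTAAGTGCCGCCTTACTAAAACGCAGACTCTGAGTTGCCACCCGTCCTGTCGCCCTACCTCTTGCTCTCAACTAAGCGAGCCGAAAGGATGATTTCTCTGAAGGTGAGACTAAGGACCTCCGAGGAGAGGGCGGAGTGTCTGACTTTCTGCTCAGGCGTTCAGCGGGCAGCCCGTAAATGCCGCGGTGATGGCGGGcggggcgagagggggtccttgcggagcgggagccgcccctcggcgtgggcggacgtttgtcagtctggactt

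The level of Hadhb relative to Hadha was compared in each library, a comparison chosen after the values of both were seen and therefore given without a test. The log2 ratio of Hadhb to Hadha was 1.32 at the median in adults (range 0.94 to 1.58) and -0.12 at P1 (-1.23 to 0.30), so that the groups did not overlap. Means were 1.25 ± 0.23 in adults (SD, n = 9) and -0.21 ± 0.46 at P1 (SD, n = 8), a difference of 1.46. The ratio was higher in adults in 5 of 5 replicate sets that hold both ages, by between 1.09 and 1.83, and leaving out 1 library gave differences between 1.32 and 1.54. Its median was 0.13 at P4 and -0.04 at P7, then 1.06 at P14 and 1.09 at P35.

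**Figure D3:**
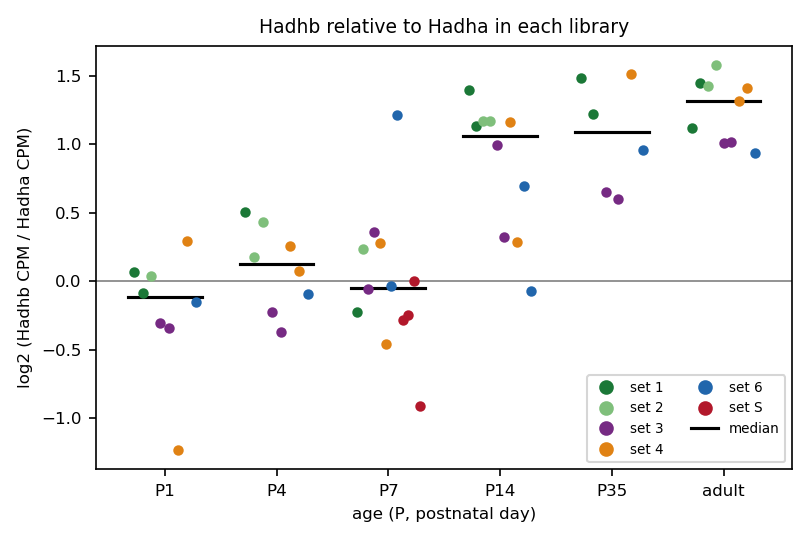
Log2 ratio of Hadhb CPM to Hadha CPM in each library (points, coloured by replicate set) by age (low to high), with the median of each age as a black bar. Medians are near 0 up to P7 and at 1.06 or above from P14 on, and the 9 adult libraries lie above all 8 P1 libraries.

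Hadh (chromosome 3, 131233419 to 131272101, minus strand) encodes the short-chain hydroxyacyl-CoA dehydrogenase. Hadh had a median of 59.1 CPM at P1 (range 23.2 to 89.6), 76.03 CPM at P4 (36.5 to 130.1) and 47.9 CPM at P7 (25.3 to 107). Its median was 104 CPM at P14 (36.9 to 151), 73.97 CPM at P35 (25.4 to 149) and 132 CPM in adults (29.6 to 170). In adults 6 of 9 libraries exceeded the highest P1 library, and the log2 difference was 0.97 ± 0.17 (SE, adjusted p = 9.04e-06). Echs1, the short-chain enoyl-CoA hydratase, was at 291 CPM in adults (76.1 to 340.3) and 153 CPM at P1 (104 to 204), with a log2 difference of 0.52 ± 0.16 (SE, adjusted p = 0.00945). Acaa2, the mitochondrial thiolase, was at 164 CPM in adults (40.1 to 206) and 96.7 CPM at P1 (51.8 to 158), with a log2 difference of 0.51 ± 0.18 (SE, adjusted p = 0.0234), but of 0.36 without P1 female 4 (adjusted p = 0.0833).

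Helpers for unsaturated fatty acids. Double bonds need an isomerase or a reductase before the cycle can go on, and 2 of the 3 genes for these were higher in adults. Eci1 (chromosome 17, 24426641 to 24439348, plus strand) encodes the mitochondrial enoyl-CoA isomerase. Eci1 had a median of 43.8 CPM at P1 (range 0 to 104), 105 CPM at P4 (30.2 to 126) and 49.3 CPM at P7 (10.96 to 159). Its median was 196 CPM at P14 (52.6 to 316), 130.4 CPM at P35 (49.7 to 246) and 249 CPM in adults (56.9 to 368). P1 female 4 had 0 counts, adult male 60 was the lowest adult library, and 7 of 9 adult libraries exceeded every P1 library. The log2 difference was 2.12 ± 0.41 (SE, adjusted p = 5.49e-05), and 1.87 without P1 female 4 (adjusted p = 1.29e-08). Eci2, an isomerase of peroxisomes and mitochondria, was at 258 CPM in adults (49.98 to 296) and 170.2 CPM at P1 (24.1 to 320.2) and did not pass, at 0.12 ± 0.26 (SE, adjusted p = 0.744). Decr1, the dienoyl-CoA reductase, was at 82.2 CPM in adults (22.2 to 120.4) and 33.5 CPM at P1 (0.0703 to 65.1), with a log2 difference of 1.11 ± 0.36 (SE, adjusted p = 0.0123).

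Electron transfer flavoprotein. Etfa and Etfb encode the subunits of a heterodimer that takes electrons from the dehydrogenases, and Etfdh passes them to ubiquinone. Of the 3, only Etfb (chromosome 7, 43444083 to 43457800, plus strand) was higher in adults. Etfb had a median of 23.04 CPM at P1 (range 12.4 to 34.2), 30.2 CPM at P4 (14.8 to 47.5) and 19.5 CPM at P7 (6.66 to 65.4). Its median was 45.6 CPM at P14 (20.5 to 124), 47.2 CPM at P35 (17.4 to 70.45) and 54.65 CPM in adults (22.5 to 138). In adults 8 of 9 libraries exceeded the highest P1 library, and the log2 difference was 1.24 ± 0.22 (SE, adjusted p = 1.29e-05). Etfa was at 167 CPM in adults (50.75 to 249) and 148.5 CPM at P1 (85.4 to 219.9), with a log2 difference of 0.003 ± 0.16 (SE, adjusted p = 0.994), and had the highest level of the 31 genes per kilobase at P1, 80.9 CPM per kb. Etfdh was at 45.3 CPM in adults (10.8 to 62.9) and 43.25 CPM at P1 (25.3 to 59.2), with a log2 difference of -0.06 ± 0.23 (SE, adjusted p = 0.8685). The difference between Etfb and Etfa in their change with age was not tested.

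Peroxisomal genes. Of 6 genes, 3 were higher in adults and 0 lower. Pex11a (chromosome 7, 79735957 to 79743131, minus strand) encodes a membrane protein of peroxisome division. Pex11a had a median of 27.55 CPM at P1 (range 16.3 to 46.2), 47.1 CPM at P4 (21.8 to 61.99) and 29.6 CPM at P7 (9.27 to 64.8). Its median was 58.8 CPM at P14 (20.8 to 104), 54.8 CPM at P35 (20.5 to 91.8) and 84.3 CPM in adults (25 to 117). Libraries of set 3 were the lowest in adults, and 7 of 9 adult libraries exceeded the highest P1 library. Adult minus P1 came to 1.18 ± 0.20 (SE, adjusted p = 5.01e-06).

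Acaa1a (chromosome 9, 119339676 to 119350299, plus strand) encodes the peroxisomal thiolase; it has a near-identical neighbour, Acaa1b, so its counts are uncertain where reads fit both. Acaa1a had a median of 67.1 CPM at P1 (range 54.1 to 89.7), 82.6 CPM at P4 (68.95 to 131) and 70.5 CPM at P7 (49.8 to 124). Its median was 102 CPM at P14 (61.8 to 197), 92.9 CPM at P35 (44.05 to 151) and 126 CPM in adults (57.5 to 233). The highest adult library, adult female 4, was at 233 CPM, and 7 of 9 adult libraries exceeded the highest P1 library. On the log2 scale adult minus P1 was 0.79 ± 0.15 (SE, adjusted p = 5.12e-05).

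Crot (chromosome 5, 8966033 to 8997324, minus strand) encodes carnitine octanoyltransferase, which prepares shortened chains for export. Crot had a median of 37.5 CPM at P1 (range 0 to 54.35), 43.5 CPM at P4 (28.3 to 90.9) and 43.9 CPM at P7 (23.9 to 75.5). Its median was 90.3 CPM at P14 (31.9 to 139.7), 66.4 CPM at P35 (47.8 to 114.5) and 87.7 CPM in adults (34.2 to 127). Adult libraries exceeded every P1 library in 8 of 9 cases, and P1 female 4 had 0 counts. The fitted log2 difference was 1.33 ± 0.37 (SE, adjusted p = 0.00322), with 1.08 without P1 female 4 (adjusted p = 5.28e-05) and 1.69 without replicate sets 3, 6 and S (adjusted p = 0.0586).

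The remaining 3 peroxisomal genes did not pass. Ehhadh, the L-bifunctional enzyme, was low, at 7.02 CPM in adults (0 to 11.5) and 2.898 CPM at P1 (0 to 4.61), with a log2 difference of 1.26 ± 0.57 (SE, adjusted p = 0.0725), and had 0 counts in adult male 60, P35 female 6 and P1 female 4. Hsd17b4, the D-bifunctional enzyme, was at 80.5 CPM in adults (41.3 to 134) and 77.8 CPM at P1 (14.98 to 154), with a log2 difference of 0.19 ± 0.20 (SE, adjusted p = 0.4885). Acox3, an oxidase of branched chains, was at 17.8 CPM in adults (7.96 to 30.3) and 13.2 CPM at P1 (0 to 25.5), with a log2 difference of 0.50 ± 0.33 (SE, adjusted p = 0.237), and had the lowest adult level of the 31 genes per kilobase, 1.54 CPM per kb.

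The regulator Ppara. Ppara (chromosome 15, 85734983 to 85802819, plus strand) encodes a nuclear receptor that binds fatty acids and acts with Rxra. Ppara had a median of 4.503 CPM at P1 (range 0.0703 to 14.03), 9.62 CPM at P4 (3.39 to 12.8) and 7.48 CPM at P7 (1.895 to 14.7). Its median was 14.7 CPM at P14 (2.74 to 21.4), 12.7 CPM at P35 (4.52 to 27.3) and 15.1 CPM in adults (4.165 to 26.7). P1 female 4 was at 0.0703 CPM, 6 of 9 adult libraries exceeded the highest P1 library, and adult male 60 was the lowest adult library. The log2 difference was 1.63 ± 0.40 (SE, adjusted p = 8.63e-04), with 1.39 without P1 female 4 (adjusted p = 2.31e-04) and 1.42 without replicate sets 3, 6 and S (adjusted p = 0.08203).

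Since Ppara and the estrogen-related receptors are known to bind repeats or extended forms of AGGTCA, RefSeq promoter windows (GRCm38.p6, 250 bases before and 50 after each start) were searched on both strands. The table held 28 of the 31 genes. The peroxisome proliferator element, searched as AGGNCA followed by any base and AGGNCA again, was found in 0 of the 28 and in 0.451% of 27025 genes. The extended half-site TNAAGGTCA was found in 1 of the 28, Acsl6, and in 1.43% of all genes. The half-site AGGTCA, which the extended form contains, was found in 6 of the 28 (Acadm, Cpt1c, Echs1, Acsl6, Acadvl and Cpt1a), or 21.4%, and in 18.1% of all genes. The Acsl6 window is shown for that match; it is chr11:54303574-54303873, plus strand, with the match, which reads TNAAGGTCA on the other strand and starts 167 bases before the start site, in capitals.
Acsl6 promoter: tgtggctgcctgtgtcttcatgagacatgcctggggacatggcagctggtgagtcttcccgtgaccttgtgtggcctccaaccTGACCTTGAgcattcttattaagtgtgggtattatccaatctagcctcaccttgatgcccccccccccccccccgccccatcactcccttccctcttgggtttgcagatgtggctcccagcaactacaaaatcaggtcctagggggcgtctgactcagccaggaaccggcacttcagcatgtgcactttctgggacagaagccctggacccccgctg

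The time course. Relative to P1, the median fitted log2 difference over the 31 genes was 0.40 at P4 and 0.28 at P7, then 0.60 at P14 and 0.55 at P35, and 0.86 in adults, and over all genes it was between 0.06 and 0.11 at each of these ages. For Acsbg1 the fitted differences were 0.72 ± 0.22 at P4 and 1.28 ± 0.23 at P7, then 2.10 ± 0.22 at P14 and 1.99 ± 0.23 at P35, and 2.35 ± 0.22 in adults (SE). Between consecutive ages, 3 of the 31 genes passed from P7 to P14, all higher at P14, beside 3.3% of all genes called and 1.65% higher in that step: Acsbg1 by 0.82 ± 0.22 (adjusted p = 0.0242), Etfb by 0.79 ± 0.22 (adjusted p = 0.0363) and Hadhb by 0.62 ± 0.19 (SE, adjusted p = 0.0495). These 3 calls were each lost in several fits with 1 library left out, and the number called was then between 0 and 10. Over the whole table those fits called between 74 and 1560 genes, against 697 with all libraries. Leaving out P7 male 6 gave 1332 and leaving out P14 male 6 gave 1430. Summed proliferation markers were at 136.6 CPM in P7 male 6, the lowest of P7 (median 279.9). They were at 282.1 CPM in P14 male 6, the highest of P14 (median 106.7). Their log2 ratios of Hadhb to Hadha were 1.22 and -0.07. Whether P7 male 6 and P14 male 6 carry each other's age label was not tested. In the other steps 0 members passed. The adjusted p of edgeR's test called 0.44% of all genes for P4 minus P1, 1.67% for P7 minus P4, 1.15% for P35 minus P14 (0.81% lower) and 0% for adult minus P35. At an unadjusted p under 0.05 there were 7 members for P4 minus P1 (12% of all genes), 1 for P7 minus P4 (13.4%), 2 for P35 minus P14 (14.8%) and 5 for adult minus P35 (4.19%). DESeq2 called 1 member in P4 minus P1 and 0 in each of the other 3 of these steps. Of the 21118 genes of the table it called 670, 912, 778 and 114 in these 4 steps, in the order given.

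Replicate sets. All 31 genes differed between replicate sets, beside 69.1% of all genes. Compared with set 1, at equal age and sex, 28 of 31 were lower in set 6 (17.1% of all genes), 20 in set 3 (24.8%), 13 in set S (18.3%) and 6 in set 4 (8.3%, with 0 members and 9.56% of genes higher), and 0 in set 2 (0%; 8 members and 5.33% of all genes at an unadjusted p under 0.05). The median log2 difference of the 31 genes from set 1 was -1.55 in set 6, -0.93 in set S, -0.90 in set 3, -0.38 in set 4 and -0.34 in set 2. Mature astrocyte markers had medians of -2.59 in set 6, -1.94 in set S, -1.67 in set 3, -0.91 in set 4 and -0.71 in set 2. Neuronal markers had medians of 1.64 in set 6, 1.88 in set S, 2.11 in set 3, 0.63 in set 4 and 0.15 in set 2. All 24 neuronal markers were higher in set 3 and all 28 astrocyte markers lower in sets 3 and 6.

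Among the 31 genes, Acsl1 ran the other way, higher than in set 1 by 2.11 ± 0.40 in set 3, 1.59 ± 0.45 in set 6 and 1.83 ± 0.60 in set S (SE, adjusted p = 2.60e-05, 0.00493 and 0.0167 in that order). The neuronal isoform Cpt1c was higher in set 3 by 0.75 ± 0.21 (adjusted p = 0.00284). In sets 6 and S it did not pass, at -0.48 ± 0.244 and -0.291 ± 0.345 (SE, adjusted p = 0.1251 and 0.55 in that order). Slc27a1 had the lowest value, -2.95 ± 0.33 in set 6 (adjusted p = 2.59e-09), followed by Acsbg1 at -2.55 ± 0.24 (adjusted p = 4.27e-11). The part of cell type content in these differences was not tested.

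**Figure D4:**
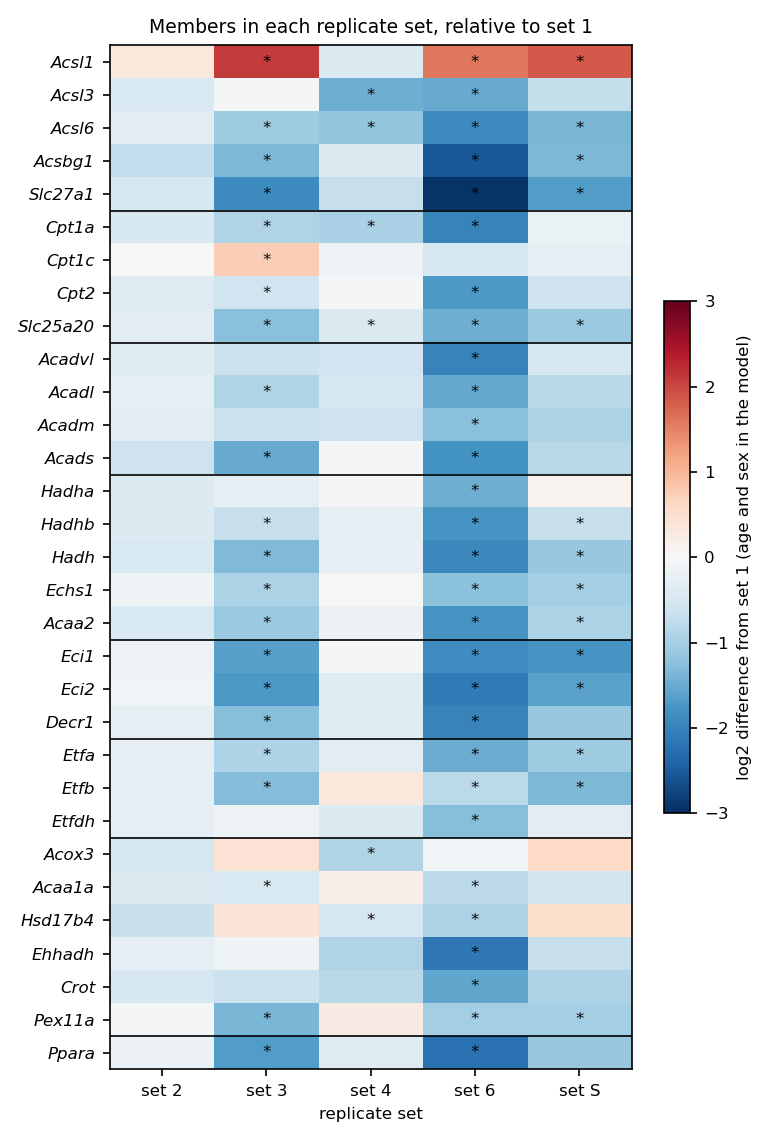
Log2 difference of each of the 31 genes (rows, grouped by role) from replicate set 1 in the other 5 sets (columns), with age and sex in the model; a star marks an adjusted p under 0.05. Sets 3, 6 and S are blue for most genes, while Acsl1 is red in all 3.

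Within the 5 sets that hold both ages, adult minus P1 was above 0 for 28 of 31 genes in set 1, 26 in set 2, 27 in set 3, 31 in set 4 and 19 in set 6. The medians over the 31 genes were 0.58, 0.84, 0.64, 2.09 and 0.40 in that order, and those over all genes 0.02, 0.03, -0.02, 0.56 and -0.07. Set 4 holds P1 female 4; without it 30 of 31 genes were above 0, and the median was 1.02 over the 31 genes and 0 over all genes. Of the 20 genes called, 15 were higher in adults in 5 of 5 sets, among them Acsbg1 by between 1.62 and 2.81 and Hadhb by between 1.53 and 2.36. Slc27a1, Cpt2, Acadl, Echs1 and Acaa2 were higher in 4 sets and lower in set 6, where each age has 1 library. The 20 genes were called from these same libraries, so these counts of sets are a description and no separate support. The share over all genes was not computed.

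**Figure D5:**
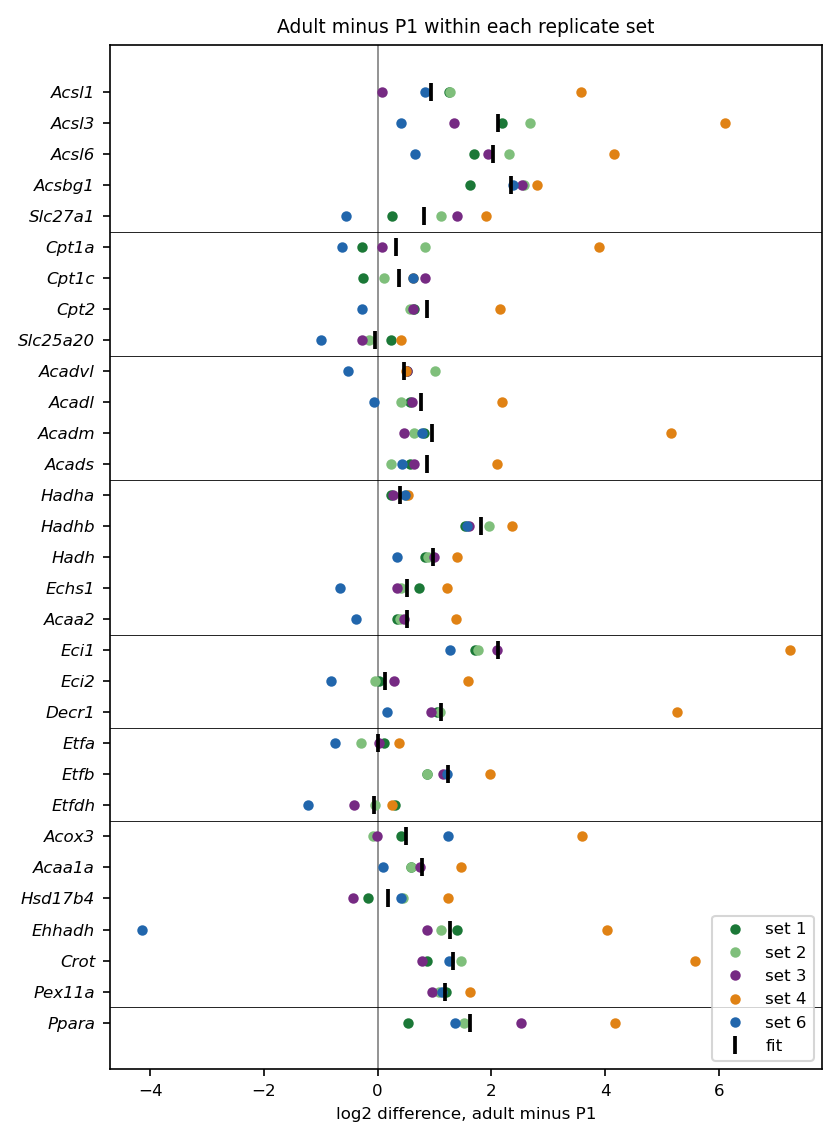
Log2 difference of adult minus P1 for each of the 31 genes (rows, grouped by role) within each of the 5 replicate sets that hold both ages (coloured points), with the difference of the model as a black tick. Acsbg1 and Hadhb lie above 1.5 in all 5 sets, and the orange points far to the right are set 4, which holds P1 female 4.

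Sex. Female and male labelled groups differed for 0 of the 31 genes in edgeR's test of the mean over the 6 ages (0.0284% of all genes called), with 0 members and 2.15% of all genes at an unadjusted p under 0.05. DESeq2 called 0 members and 103 genes of the table. The fitted differences of female minus male lay between -0.26 (Ehhadh) and 0.09 (Etfb) on the log2 scale. A change of the sex difference with age was called for 0 genes in the table and 0 members, and 0 members had an unadjusted p under 0.05, beside 3.68% of all genes. The labels of 11 libraries are in doubt at the Y-linked cutoff given above, some of them by low sums only.

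Genes around the pathway. Of 34 other genes of fatty acid oxidation, 16 were higher in adults and 1 was lower. Phyh, which starts the oxidation of phytanic acid in peroxisomes, was at 415 CPM in adults and 70.01 CPM at P1 (log2 difference 2.38, adjusted p = 1.92e-12). Acot13, a thioesterase, was at 169 CPM in adults and 50.1 CPM at P1 (log2 difference 1.75, adjusted p = 9.86e-09), and the peroxisomal transporter Abcd2 at 55.8 CPM in adults and 18.4 CPM at P1 (log2 difference 1.35, adjusted p = 1.08e-07). Amacr, the racemase of branched chains, was at 28.2 CPM in adults and 11.4 CPM at P1 (log2 difference 1.12, adjusted p = 3.13e-06). The gene that was lower was the transport protein Slc27a3.

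Of 21 regulators and targets of the Ppara type of receptor, 10 were higher in adults and 2 lower. The estrogen-related receptor Esrra was at 84.3 CPM in adults and 26.02 CPM at P1 (log2 difference 1.70, adjusted p = 4.38e-10), and the coactivator Ppargc1b at 11.9 CPM in adults and 2.33 CPM at P1 (log2 difference 2.52, adjusted p = 6.94e-07). Ucp3, a mitochondrial carrier and Ppara target, was at a median of 20.4 CPM in adults and 0.0722 CPM at P1, too low at P1 for its fold to be given.

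Ketone body genes were higher in 2 and lower in 4 of 11 cases. The thiolase Acat2 was at 98.7 CPM in adults and 286 CPM at P1 (log2 difference -1.63, adjusted p = 9.92e-10), Acat1 at 145 CPM in adults and 271 CPM at P1 (log2 difference -0.89, adjusted p = 3.18e-05) and the acetoacetyl-CoA synthetase Aacs at 55.1 CPM in adults and 98.4 CPM at P1 (log2 difference -1.02, adjusted p = 5.10e-04). Of 22 genes of fatty acid synthesis, 9 were higher and 5 lower, with Thrsp at 305 CPM in adults and 21.9 CPM at P1 (log2 difference 3.78, adjusted p = 2.62e-08), Hacd2 at 72.7 CPM in adults and 15.7 CPM at P1 (log2 difference 1.56, adjusted p = 1.44e-06), Scd2 at 477 CPM in adults and 189 CPM at P1 (log2 difference 0.95, adjusted p = 3.09e-05) and the elongase Elovl6 at 21.1 CPM in adults and 41.7 CPM at P1 (log2 difference -1.002, adjusted p = 9.02e-05). Of 20 genes of peroxisome assembly, 6 were higher and 2 lower, led by Pex5l, a relative of the import receptor Pex5 that also binds neuronal HCN channels, at 43.9 CPM in adults and 5.49 CPM at P1 (log2 difference 3.25, adjusted p = 1.04e-10), followed by Pxmp4 at 87.7 CPM in adults and 35.1 CPM at P1 (log2 difference 1.01, adjusted p = 2.71e-05), Pex10 at 21.3 CPM in adults and 10.6 CPM at P1 (log2 difference 1.08, adjusted p = 1.06e-04) and Pxmp2 at 89.5 CPM in adults and 21.2 CPM at P1 (log2 difference 1.79, adjusted p = 8.37e-04).

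Of 31 nuclear subunits of the respiratory chain, which takes up the electrons of the cycle, 24 were higher in adults and 0 lower, with a median log2 difference of 0.63. Ndufb10 was at 504 CPM in adults and 246.5 CPM at P1 (log2 difference 1.18, adjusted p = 1.26e-07), Sdha at 346 CPM in adults and 160.4 CPM at P1 (log2 difference 1.06, adjusted p = 1.87e-07) and Ndufa10 at 296.5 CPM in adults and 199.7 CPM at P1 (log2 difference 0.58, adjusted p = 2.98e-06). Of 16 proliferation markers, 0 were higher and 16 lower in adults, and of 14 radial glia and progenitor markers 3 were higher and 9 lower. The part of maturation and of other cells in the values of the 31 genes was not tested.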

How the data were processed

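The authors deposited raw counts, as whole numbers, in 1 table of genes by 53 mice. The 4 P7 mice that the labels list as sequenced in 2 runs have 1 column each, used as it stands. Per the submitters' processing notes, the tools were featureCounts, HISAT2, CASAVA and SAMtools, and the build was GRCm38.p5. Their versions, the gene annotation, the strand setting and any filter on genes were not given in the sources used here, so reads of overlapping genes and near-identical copies cannot be told apart. Per the labels' protocols, poly(A) RNA gave strand-marked libraries.

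The test was that of edgeR 4.0.16 (R 4.3.3; TMM scaling, trended dispersion, robust quasi-likelihood F test) in 1 model of the 12 groups of age and sex and the 6 replicate sets; no gene was filtered out. Within-set values are differences of mean log2 CPM with a prior count of 2. Checked on simulated counts of 21118 genes for adult minus P1, this fit recovered 27% of 100 genes changed 2-fold and 99% of 100 changed 4-fold, with 1.56% of calls false. The simulation had 1 dispersion of 0.2 for all genes and changed no other genes with age. In the data 41.3% of genes were called in adult minus P1, so these shares do not give the power for the 31 genes. Alternatives included DESeq2 1.42.0. Nothing in the labels says more of the replicates than that each is its own mouse. No 2 libraries of a group agreed within sampling noise (chi-square per gene at least 36.2). Exon lengths came from the GENCODE annotation of GRCm38, joined over all transcripts of a gene (8286 bases for Echs1 and 11521 for Acox3), and promoters from RefSeq.

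The 31 genes and the gene lists were chosen with earlier results of these data known. Within each role, genes past the test over the 6 ages were given in full, at most 2 by smallest p (3 in roles of 5 or more genes), and otherwise the gene with the highest level, with Ppara in any case. Of the lists around the pathway, up to 4 genes by smallest p in adult minus P1 were named, and genes that this would add beyond those given are not reported here.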

Additional observations from a re-analysis of the deposited data

Results flagged for a closer look

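P7, with 12 libraries, was not screened, since the criterion used here was applied to groups of at most 10. In 8 of 155 groups of 1 gene at 1 of the other 5 ages, a single library stood apart from the others by Dixon's criterion at 95%; chance gives about 1 in 20. P14 male 4, one of the 3 libraries with the fewest genes, was high for 3 genes: Hadha at 101.8 CPM (next highest 62.7, median 49.98), Etfb at 124 CPM (55.2, 45.6) and Acaa1a at 197 CPM (123, 102). P35 female 6 was low for Hadha, at 15.2 CPM (next lowest 46.0, median 55.1), and had 0 counts for Ehhadh (next lowest 5.199 CPM, median 5.65 CPM). Adult female 4 was high for Etfb at 138 CPM (next highest 67.9, median 54.65), and adult male 3 for Cpt1c at 42.0 CPM (21.3, 16.4). P4 male 1 was high for Cpt2 at 19.3 CPM (13.1, 10.1).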

How the results depend on the processing

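Of the 20 genes higher in adults than at P1, 10 were called under each of the 9 alternatives and in each of the 53 fits with 1 library left out (Acaa1a, Acsbg1, Acsl3, Acsl6, Cpt2, Eci1, Etfb, Hadh, Hadhb and Pex11a). The others were each lost in at least 1 alternative. With no replicate block these were Acadl, Acadm, Hadha, Acads, Echs1, Slc27a1 and Acaa2, and with library totals the same except Acads. Without sets 3, 6 and S they were Acadm, Decr1, Crot, Hadha, Slc27a1 and Ppara. Leaving out the 3 libraries with the fewest genes lost Slc27a1 and Acaa2. Leaving out the 11 with Y-linked sums against their label lost Acadm and Hadha. Same-numbered libraries of different groups deviated together (median correlation 0.463, lowest -0.177), and differently numbered ones had a median of -0.12. A correlation above 0.1 was found in 93.7% of 223 same-numbered pairs and in 29.5% of 1055 others. The labels do not say what the numbers stand for, so they are not shown to pair the mice. With no replicate block the model called 13 of the 31 genes in adult minus P1, all 13 higher and all among the 20, and 8 over the 6 ages, against 20 and 13 with the block. Over the whole table it called 5725 and 6135 genes, against 8718 and 9190 with the block. Leaving out 1 library gave 17 to 21 calls in adult minus P1 (17 without adult male 3 or adult female 4), 12 to 16 over the 6 ages, 0 to 10 from P7 to P14 (0 without P7 male 2, P7 female 30, P14 female 3 or P14 male 4), 30 to 31 between sets and 0 from P14 to P35. In these fits the dispersion trend was that of all libraries. From P7 to P14 the table held 74 called genes without P7 male 2 and 1560 without P1 female 4, the fit with 10 members called. For P4 minus P1, P7 minus P4, adult minus P35 and both sex tests, fits with 1 library left out were not run. The separate runs of the P7 mice were not analysed here.

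From P7 to P14, where 3 genes were called, library totals gave 0, DESeq2 7, leaving out the 3 libraries with the fewest genes 6, the 5 libraries whose description carries the letter of the other sex 0, the 11 libraries with Y-linked sums against their label 0, and sets 3, 6 and S 1. Over the whole table these settings called 563, 1587, 1295, 94, 117 and 336 genes in that order, against 697 in the model. The cause was not tested. In that step 50.1% of all called genes were higher, 64.3% with RLE scaling, 36.2% with library totals, 59.9% among genes of at least 1 CPM on average, 64.5% with DESeq2. DESeq2 called 1 of the 31 genes from P1 to P4, leaving out the 3 libraries with the fewest genes gave 1 from P14 to P35, and leaving out sets 3, 6 and S, chosen after seeing the data, gave 1 between sets. Over the whole table these 3 settings called 670, 1049 and 1947 genes in that order. In adult minus P1 the median of all genes, 0.06 in the model, was 0.11 with RLE scaling, 0.12 with DESeq2, -0.061 with library totals, -0.007 without the 3 libraries with the fewest genes and 0.20 without sets 3, 6 and S, beside 0.91, 0.91, 0.73, 0.68 and 1.05 over the 31 genes in that order. With library totals 14 of the 31 genes were called, all 14 higher. Of the 8549 genes of the table called with library totals 45.6% were higher, against 52.7% of 8718 in the model.

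Genes that changed sign in adult minus P1 had not been called: Slc25a20 (-0.05; 0.10 with no replicate block, 0.001 with RLE scaling and with DESeq2, 0.022, 0.035 and 0.21 without the 5 libraries, the 11 libraries and sets 3, 6 and S), Etfdh (-0.06; 0.012, 0.055, 0.035 and 0.19 with no replicate block and without those 3 groups of libraries), Eci2 (0.12; -0.005 with library totals, -0.11 without the 3 libraries with the fewest genes), Etfa (0.003; -0.12 and -0.10 likewise) and Hsd17b4 (0.19; 0 with no replicate block, -0.015 without those 3 libraries). With 1 library left out, they ranged between -0.147 and 0.029, -0.208 and 0.047, -0.092 and 0.258, -0.088 and 0.077, and 0.008 and 0.363 in that order. Ehhadh had 0 counts in 3 libraries. Of these, adult male 60 had a total of 32140380 counts, above the median of 24033399, and the cause of the zeros was not tested.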
